A study of Homo sapiens with 9 samples.

Results

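Transcript levels of 7 cell surface receptor genes were followed in HT1080 cells, an established human fibrosarcoma line, during treatment with a mix of protease inhibitors (PI). The genes were the adhesion receptors ADGRG1 (older symbol GPR56), ADGRG6 (GPR126), ADGRL1 (LPHN1), ADGRL2 (LPHN2), ADGRE5 (CD97) and ADGRA3 (GPR125), and the metabolite receptor GPR84. They were chosen on measured values of these same arrays, with earlier results of all 3 comparisons known, so their differences are given here as a description, and passing the threshold is no support. The rule took every probe set whose annotation named only 1 of the genes and set no threshold, which gave 15 of 54613 probe sets and 7 of 19775 genes. There were 3 probe sets each for ADGRL1, ADGRG6 and ADGRA3, 2 each for ADGRG1 and ADGRL2, and 1 each for ADGRE5 and GPR84.

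Each of 3 groups had 3 Affymetrix arrays, called biological replicates in the series' design text: PI for 4 h, PI for 24 h, and untreated. The mix held the metalloproteinase inhibitor GM6001 at 100 µM, the cysteine protease inhibitor E64 at 250 µM, the aspartic protease inhibitor pepstatin A at 50 µM, and aprotinin and leupeptin at 2 µM each. The design text calls it a kinase inhibitor cocktail, whereas the listed compounds are protease inhibitors. All groups grew on top of a fibrillar bovine dermal collagen gel of 1.7 mg/ml in medium with serum and had adhered for 24 h before treatments were added. The untreated arrays carry the word vehicle in their titles, but neither what it was nor when those cells were harvested is stated in the labels. HT1080 is 1 tumour line, so nothing here speaks of other cells.

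Adhesion G protein-coupled receptors carry a long extracellular part that binds matrix or neighbouring cells, followed by a domain at which many of them cut themselves. The stretch exposed when the outer fragment is pulled away acts as a tethered agonist for the membrane-spanning part. ADGRG1 binds collagen III and transglutaminase 2 and couples to G12/13 proteins, which act on RhoA. GPR84 belongs to the rhodopsin-like class, responds to medium-chain fatty acids, couples to Gi proteins, and is known mainly from monocytes, macrophages and neutrophils, where inflammatory stimuli raise it.

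Some array measures followed the treatment. For ACTB, the signal of the 5' probe set over that of the 3' one, which drops as RNA degrades, was 0.615 to 0.871 at PI 4 h, 0.654 to 0.727 at PI 24 h and 0.855 to 0.922 untreated. Spiked-in poly-A control transcripts averaged 10.15 to 10.55 at PI 4 h, 10.70 to 10.77 at PI 24 h and 9.37 to 9.52 untreated, as log2(intensity + 16). Replicate 2 of PI 4 h stood apart from its group. It had the group's highest ACTB ratio and lay at -13.4 on the first principal component, whereas the other PI treated arrays lay between 8.63 and 19.7 and untreated arrays between -23.3 and -18.2. Of 10 markers fixed for fibroblast-like cells, 8 averaged at least 64, VIM among them, and COL1A2 and NT5E averaged below the pseudocount of 16. All 5 epithelial, all 4 neural and glial, 3 of 4 endothelial and 8 of 10 myeloid markers averaged below 16. PECAM1, CSF1R and FCER1G were the exceptions. Among all these markers 1, LOX, had an adjusted p under 0.05 from limma over all genes. It was lower at PI 24 h, where 0.465% of all genes passed.

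ADGRG1 was lower at PI 24 h and GPR84 was higher at PI 4 h, and these were the largest differences from untreated cells among the 7 genes. The other 5 genes differed from untreated cells by at most 0.34 on the log2 scale at either time. A gene is represented by its brightest probe set, and differences are in log2(intensity + 16), where 16 is a pseudocount that makes differences of dim genes smaller. A call is an adjusted p under 0.05 from limma over all genes. Among the 7 genes, 1 was called at PI 4 h (GPR84, higher), where 0.248% of all genes were, and 1 at PI 24 h (ADGRG1, lower), where 0.465% of all genes were. Between PI 24 h and PI 4 h 1 was called (GPR84, lower), against 0.142% of all genes. The median difference over the 7 genes was -0.06 at PI 4 h, -0.11 at PI 24 h and -0.23 for PI 24 h against PI 4 h. Over all genes the medians were 0.012, 0.0104 and -0.00402. With only 3 arrays in a group, their number limits the precision.

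**Figure D1:**
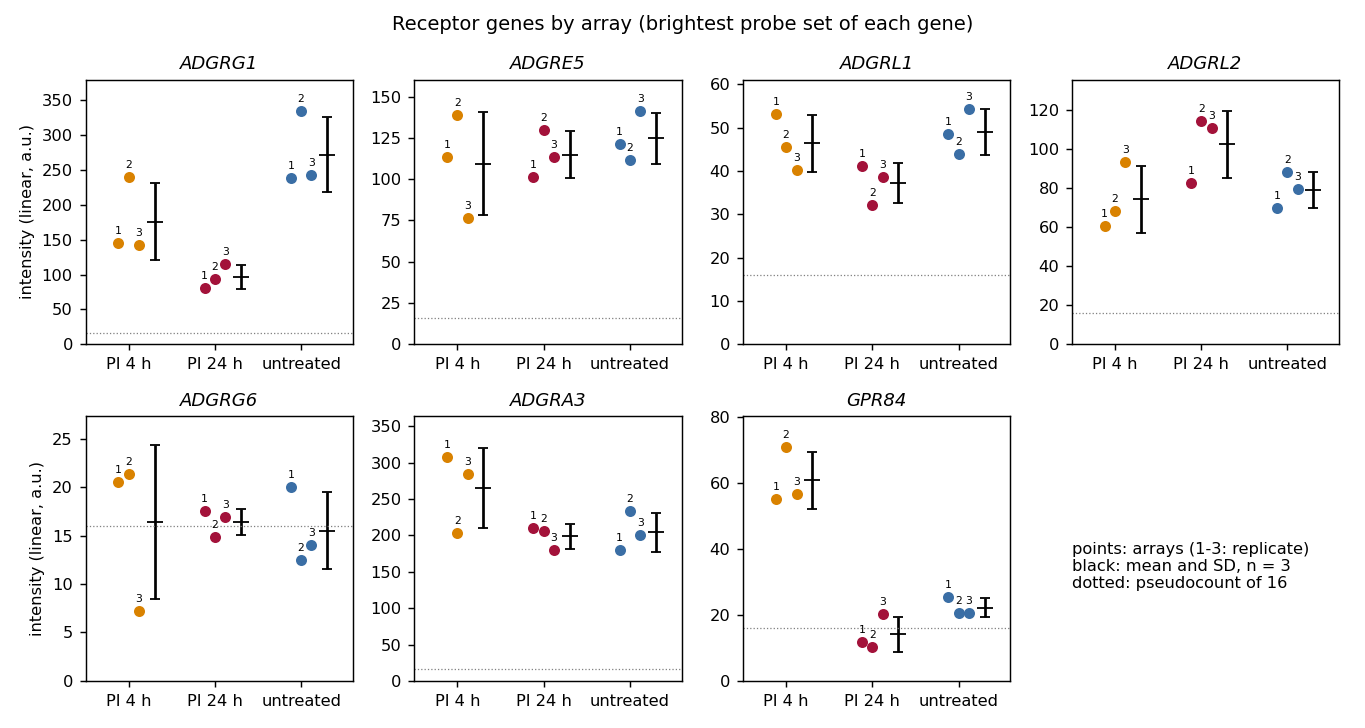
Linear intensity (arbitrary units, each array scaled to a common mean) of the brightest probe set of each gene, with 1 point per array, the replicate number above it, and the mean and SD of 3 arrays in black. The 3 PI 24 h arrays of ADGRG1 (80.4 to 114.5) lie below all others of that gene, and the 3 PI 4 h arrays of GPR84 (55.2 to 70.9) lie above all others of that gene.

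ADGRG1, the collagen III receptor, measured 145.7, 240.2 and 141.9 on the PI 4 h arrays, 80.4, 93.1 and 114.5 on the PI 24 h arrays, and 238.3, 334.1 and 243.2 on the untreated arrays. Every PI 24 h array lay below every PI 4 h and every untreated array. Replicate 2 of PI 4 h, the array that stood apart from its group, lay among the untreated arrays. The means were 96.0 ± 17.2 at PI 24 h and 272 ± 54 untreated (SD, n = 3 each), a log2 difference of -1.36 ± 0.22 (SE), or 2.56-fold lower. At PI 4 h the mean was 176 ± 56, and the difference from untreated was -0.61 ± 0.22, not past the threshold. Without replicate 2 that difference was -0.83 ± 0.19, still not past the threshold. PI 24 h minus PI 4 h was -0.75 ± 0.22, and -0.52 ± 0.19 without that replicate, neither past the threshold. ADGRG1 thus ordered as PI 24 h, PI 4 h and untreated from low to high, with PI 4 h and untreated overlapping.

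The bright ADGRG1 values came from probe set 212070_at. Its second probe set, 206582_s_at, was dim: it measured 21.1, 4.3 and 3.3 at PI 4 h, 6.9, 4.5 and 17.3 at PI 24 h, and 6.0, 20.7 and 34.3 untreated. All groups overlapped there. Its difference was -0.46 ± 0.34 for PI 24 h against untreated, of the same sign as that of the bright probe set, and 0.03 ± 0.34 for PI 24 h against PI 4 h, of the opposite sign. With the mean of both probe sets ADGRG1 differed by -0.91 at PI 24 h, and its call was lost. The call was also lost with a pseudocount of 1 and on leaving out any 1 array other than replicates 2 and 3 of PI 4 h. Over the 9 fits that leave out 1 array the difference ranged from -1.47 to -1.21. Those fits called 0 to 256 of all genes at PI 24 h, against 92 with all arrays. The untreated arrays and replicate 2 of PI 4 h had both the highest ADGRG1 levels and the highest ACTB ratios. Replicates 1 and 3 of PI 4 h had ACTB ratios of 0.682 and 0.615. The ratios were 0.654 to 0.727 at PI 24 h, where ADGRG1 was lower. Over the arrays ADGRG1 tended to fall as the first principal component rose. The part of either measure in the difference was not tested.

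ADGRG6, the other member of the same subfamily, binds collagen IV and laminin-211 and is known for raising cyclic AMP in Schwann cells. Its brightest probe set was close to the pseudocount, at 20.5, 21.4 and 7.2 at PI 4 h, 17.5, 14.9 and 16.9 at PI 24 h, and 20.0, 12.5 and 14.0 untreated. The groups overlapped, and the differences were 0.01 ± 0.19 at PI 4 h and 0.05 ± 0.19 at PI 24 h. Another probe set, 1553025_at, measured 3.2, 9.9 and 10.0 at PI 24 h, against 1.9, 1.9 and 2.1 untreated. Its groups did not overlap, but all these values lay below the pseudocount and its difference of 0.39 ± 0.15 was not past the threshold.

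ADGRL1 and ADGRL2 are latrophilins, which bind teneurins and FLRT proteins on neighbouring cells and are best known from synapses. ADGRL1 measured 53.2, 45.6 and 40.3 at PI 4 h, 41.1, 32.2 and 38.6 at PI 24 h, and 48.6, 43.9 and 54.4 untreated. The PI 24 h arrays lay below the untreated ones without overlap and overlapped with PI 4 h. Its difference at PI 24 h was -0.29 ± 0.13, not past the threshold, and the other 2 probe sets gave -0.34 ± 0.16 and -0.12 ± 0.18. At PI 4 h the difference was -0.06 ± 0.13, with 1 of the 3 probe sets of the opposite sign, 203488_at at 0.38 ± 0.18.

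ADGRL2 leaned the other way from ADGRL1 at PI 24 h. It measured 82.7, 114.3 and 110.7 at PI 24 h, 60.8, 68.2 and 93.7 at PI 4 h, and 69.7, 88.3 and 79.7 untreated. Replicates 2 and 3 of PI 24 h exceeded all other arrays, while replicate 1 lay within the untreated range. The differences were 0.31 ± 0.17 for PI 24 h against untreated and 0.40 ± 0.17 for PI 24 h against PI 4 h, neither past the threshold. Its second probe set lay at or below 13.6 on every array, and with the mean of both the difference between PI 24 h and PI 4 h was 0.09.

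ADGRE5, known as CD97 and a receptor for CD55, measured 113.2, 138.7 and 76.5 at PI 4 h, 101.6, 129.6 and 113.5 at PI 24 h, and 121.4, 111.5 and 141.5 untreated. Replicate 3 of PI 4 h was the lowest array, and the groups overlapped. The differences were -0.19 ± 0.19 at PI 4 h and -0.11 ± 0.19 at PI 24 h. Without replicate 3 of PI 4 h the PI 4 h difference turned to 0.01, and without replicate 2 it was -0.36. ADGRE5 shares closely similar outer repeats with ADGRE2. Whether its single probe set lies in them or also reads ADGRE2 was not tested. The brightest ADGRE2 probe set averaged 7.83 at PI 4 h, 19.6 at PI 24 h and 9.73 untreated.

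ADGRA3, an adhesion receptor without an established ligand that takes part in planar cell polarity in zebrafish, was highest at PI 4 h. It measured 308.0, 203.0 and 283.8 there, 210.7, 206.5 and 179.5 at PI 24 h, and 179.4, 233.1 and 200.7 untreated. Replicates 1 and 3 of PI 4 h exceeded all other arrays, and replicate 2, the array that stood apart, lay among the untreated ones. The difference at PI 4 h was 0.34 ± 0.17, and 0.51 ± 0.14 without replicate 2, neither past the threshold. PI 24 h differed from untreated by -0.03 ± 0.17. Its other 2 probe sets lay between 8.4 and 39.6. At PI 4 h 1 of these 2, 1555122_at, had the opposite sign, at -0.16 ± 0.26, and the other was at 0.29 ± 0.19. With the mean over its probe sets the PI 4 h difference was 0.15. At PI 24 h these 2 probe sets both had the opposite sign, at 0.16 ± 0.26 and 0.14 ± 0.19.

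GPR84, the fatty acid receptor, measured 55.2, 70.9 and 56.6 at PI 4 h, 11.8, 10.4 and 20.3 at PI 24 h, and 25.5, 20.7 and 20.5 untreated. All PI 4 h arrays lay above all others, and all PI 24 h arrays lay below the untreated ones, the closest pair being 20.3 and 20.5. Its PI 4 h mean was 60.9 ± 8.7 against 22.2 ± 2.8 untreated (SD, n = 3 each), a difference of 1.00 ± 0.15, or 2.01-fold higher on the log2(intensity + 16) scale. At PI 24 h the mean was 14.2 ± 5.4, which differed from untreated by -0.35 ± 0.15, not past the threshold. PI 24 h minus PI 4 h was -1.36 ± 0.15 on the log2(intensity + 16) scale, and no fold is given because the PI 24 h mean lay below the pseudocount. The order was PI 24 h, untreated and PI 4 h from low to high, the first pair being adjacent at a level near the pseudocount. Replicate 2 of PI 4 h was here the highest array, and without it the PI 4 h difference was 0.91 ± 0.16 and the PI 24 h minus PI 4 h difference -1.27 ± 0.16.

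The size of the GPR84 difference rests on the pseudocount, since its values are dim. At PI 4 h it was 1.41 with a pseudocount of 1 and 0.53 with 64, and for PI 24 h against PI 4 h it was -2.08 and -0.68. Leaving out any 1 of the 9 arrays lost the PI 4 h call, with differences between 0.91 and 1.07. The call between PI 24 h and PI 4 h was lost without any 1 of the PI 4 h arrays or without replicate 1 or 2 of PI 24 h. The fits without 1 array called 3 to 15 of all genes at PI 4 h, against 49 with all arrays. Between the times they called 6 to 18, against 28. GPR84 is known mainly from myeloid cells. The 10 myeloid markers summed to 111 to 152 at PI 4 h, 141 to 166 at PI 24 h and 143 to 173 untreated. None was called, where 0.248% of all genes were at PI 4 h, 0.465% at PI 24 h and 0.142% between the times. With so few calls over all genes, the absence of a call says little about 10 markers. At PI 4 h 1 of the 10 had an unadjusted p under 0.05 from limma, against 12.4% of all genes. CSF1R averaged 38.7 ± 14.9 at PI 4 h, 52.3 ± 6.3 at PI 24 h and 60.9 ± 10.1 untreated, and FCER1G 46.9 ± 6.0, 53.9 ± 29.5 and 51.6 ± 1.3. Both make up much of the sum, and the other 8, PTPRC, CD14, ITGAM, TYROBP, SPI1, LYZ, AIF1 and CD163, averaged below 16 over the 9 arrays. Their part in the GPR84 result was not tested. In this bulk RNA, a change in the number of cells with a transcript and a change in its amount per cell cannot be told apart.

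At the level of single probe sets, with the model fitted on all 54613, 0 of the 15 were called at PI 4 h and at PI 24 h, where 0.0128% and 0.0531% of all probe sets were called with limma. Of the 15, 1 had an unadjusted p under 0.05 at PI 24 h besides those of ADGRG1 and GPR84, the dim ADGRG6 probe set named above. Between PI 24 h and PI 4 h 1 of 15 was called, that of GPR84, against 0.0256% of all. The arrays of 2 groups did not overlap for 1 of 7 genes at PI 4 h (GPR84), where this held for 17.5% of all genes. At PI 24 h it held for 3 of 7 (ADGRG1, ADGRL1 and GPR84) and for 25% of all genes, and between PI 24 h and PI 4 h for 2 of 7 (ADGRG1 and GPR84) and for 15.2% of all genes. Of the 15 probe sets, 4 averaged at least 64, 7 from 16 to 64 and 4 below 16. ADGRL1 and ADGRE5 lie close together in the RefSeq annotation, with 3 genes and 0 protein-coding genes starting between them.

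**Figure D2:**
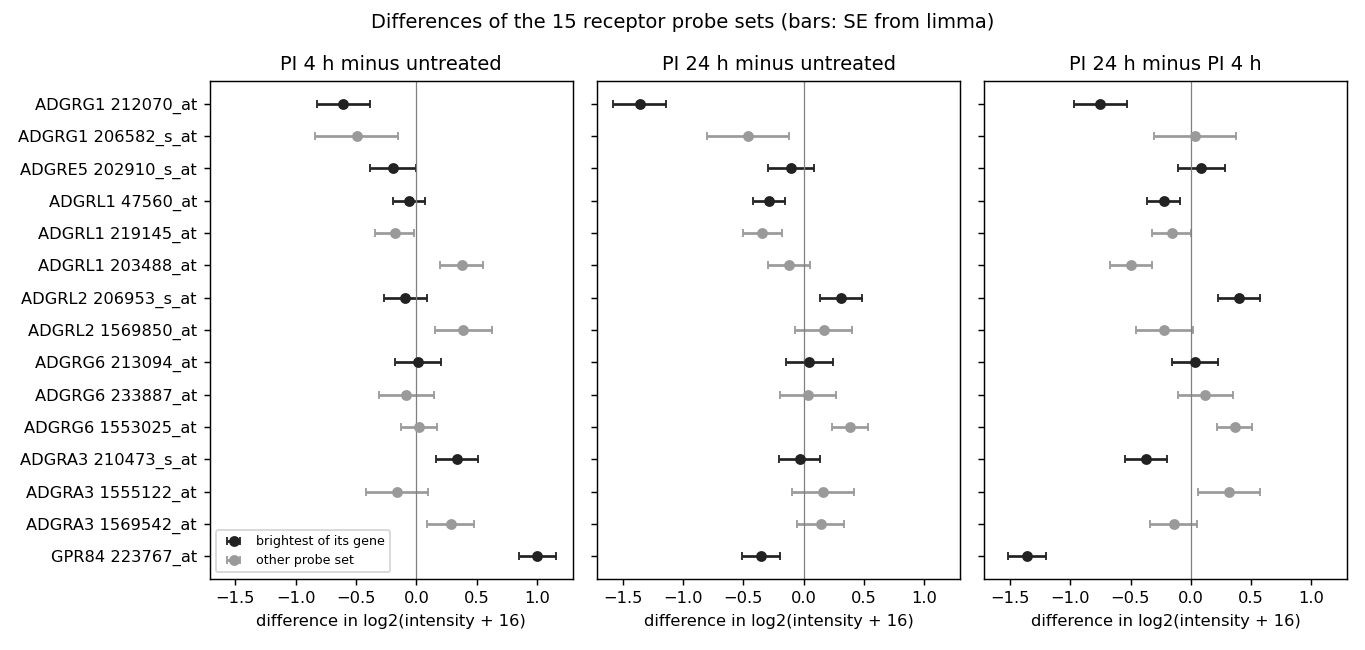
Differences in log2(intensity + 16) of the 15 probe sets, with SE bars from limma, for PI 4 h minus untreated, PI 24 h minus untreated and PI 24 h minus PI 4 h. Points left of 0 are lower in the first named group. The bright ADGRG1 probe set lies at -1.36 in the middle panel and GPR84 at 1.00 in the left and -1.36 in the right panel, and most others lie within 0.5 of 0.

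The genes most like ADGRG1 and GPR84 were sought by Pearson's r over the 9 arrays, among genes averaging at least 64. The arrays form 3 groups, so such values mostly describe the order of the groups, and genes were ranked out of 8268 and 8269. The genes named were picked for a high or low r, so a shared or opposed order of arrays follows from that choice. Closest to GPR84 were BCL2A1 (r = 0.960), an inhibitor of cell death, HBEGF (0.957), a ligand of the EGF receptor, CCN2 (0.955), ITPRIP (0.953) and TNFAIP3 (0.953), a negative regulator of NF-kB. BCL2A1 measured 142.0, 148.5 and 135.8 at PI 4 h, 62.8, 65.9 and 72.1 at PI 24 h, and 72.3, 69.7 and 88.4 untreated. Like GPR84 it was highest at PI 4 h without overlap. HBEGF averaged 671 at PI 4 h, 422 at PI 24 h and 494 untreated, and CCN2 1140, 256 and 383. Most opposed to GPR84 were EPDR1 (r = -0.966), RHOA (-0.962), the GTPase on which ADGRG1 signalling acts, and AUH (-0.949). RHOA measured 5706.3, 5459.2 and 5579.3 at PI 4 h, 6544.2, 6852.4 and 6520.4 at PI 24 h, and 6023.1, 6385.0 and 6117.5 untreated, the groups lying apart but not past the threshold at either time (limma adjusted p = 0.622 and 0.684).

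Closest to ADGRG1 were BIVM (r = 0.975), PTGFRN (0.973), a partner of the tetraspanins CD9 and CD81, TMEM158 (0.971), MRFAP1L2 (0.965) and ZNF581 (0.963). PTGFRN measured 252.9, 314.2 and 276.3 at PI 4 h, 178.6, 223.1 and 224.6 at PI 24 h, and 339.5, 371.1 and 329.0 untreated. As for ADGRG1, all PI 24 h arrays were lowest, and replicate 2 was the highest array of PI 4 h. TMEM158 averaged 4524 at PI 4 h, 3964 at PI 24 h and 5627 untreated. Most opposed were YPEL5 (r = -0.988), BUD23 (-0.985), a ribosomal RNA methyltransferase, and MLF1 (-0.977).

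**Figure D3:**
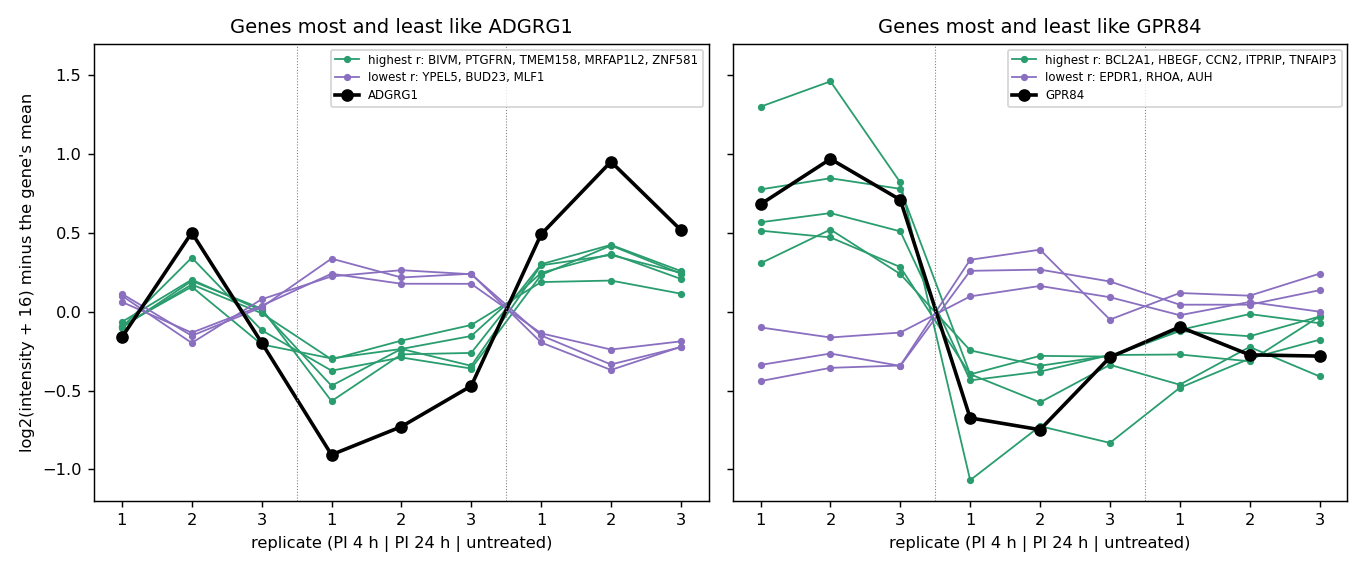
Log2(intensity + 16) of each gene minus its own mean over the 9 arrays, for ADGRG1 (left) and GPR84 (right) in black, the 5 genes with the highest r in green and the 3 with the lowest in purple. Arrays run from PI 4 h through PI 24 h to untreated, 3 replicates each. Replicate 2 of PI 4 h rises above its group for ADGRG1 and its 5 like genes, and all 3 PI 4 h arrays are high for GPR84 and its 5 like genes. The genes were picked by r over these same arrays, so the shared shape follows from the choice.

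Genes around the receptors were described from 4 lists: the other adhesion receptors, ligands of the members, G proteins with their partners, and receptors for metabolites. The lists were chosen with earlier results of these data known, so a share above that of all genes is a description and no support. At PI 4 h 0 of their 75 measured genes were called by limma, where 0.248% of all genes were called. An unadjusted p under 0.05 was found for 11 of the 75 (14.7%), against 12.4% of all genes. At PI 24 h 3 of 75 rose and 1 fell, where 0.465% of all genes were called. An unadjusted p under 0.05 was found for 20 of the 75 (26.7%), against 15.8% of all genes. Between PI 24 h and PI 4 h limma called 0 of the 75, against 0.142% of all genes, and 16 (21.3%) had an unadjusted p under 0.05, against 11.3% of all genes. With 13 to 24 genes in a list, the counts by list below stand against the same shares of all genes. Calls lost without 1 array, given below, stand beside 0 to 256 genes called at PI 24 h in such fits, and 92 with all arrays. The median difference over the 75 genes was -0.04 at PI 4 h and -0.08 at PI 24 h.

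Of 24 other adhesion receptors, 15 averaged below the pseudocount. At PI 24 h, where 0.465% of all genes were called, 1 of the 24 rose. That was ADGRE1, the human counterpart of the mouse macrophage antigen F4/80, with a single probe set. It measured 276.5, 283.8 and 274.0 at PI 4 h, 472.9, 519.0 and 489.6 at PI 24 h, and 247.4, 276.7 and 201.7 untreated. The PI 24 h arrays stood above all others, and PI 4 h overlapped with untreated. The difference at PI 24 h was 0.99 ± 0.13 (limma adjusted p = 0.0252), and over 18 alternative settings, 9 of which leave out 1 array, its adjusted p ranged from 0.000241 to 0.12. It lost its call without any 1 of the PI 24 h or untreated arrays. ADGRL4, the other gene of the list averaging at least 64, averaged 541 ± 34 at PI 4 h, 524 ± 80 at PI 24 h and 456 ± 96 untreated, within the spread of the arrays. ADGRF4 averaged 29.1 ± 3.8 at PI 24 h and 50.1 ± 4.3 at PI 4 h (limma adjusted p = 0.129), and ADGRV1, ADGRF1 and CELSR3, which the naming rule also took, averaged at most 34.3 in any group.

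Of 15 ligands, 1 rose and 1 fell at PI 24 h, where 0.465% of all genes were called, and 13 did not pass. FLRT3, a latrophilin ligand, measured 32.0, 31.5 and 25.3 at PI 4 h, 25.9, 26.9 and 24.2 at PI 24 h, and 51.8, 50.5 and 50.5 untreated. All treated arrays lay below the untreated ones. The difference was -0.56 ± 0.11 at PI 4 h (limma adjusted p = 0.0863) and -0.68 ± 0.11 at PI 24 h (limma adjusted p = 0.0427). At PI 24 h the adjusted p lay between 0.0129 and 0.185 over the 18 alternatives. Its second probe set had the same sign at both times. With the mean of both probe sets the PI 24 h difference was -0.48 (limma adjusted p = 0.0596), and the call was lost. COL3A1, the collagen III chain that ADGRG1 binds, measured 17.1, 29.9 and 12.5 at PI 24 h, against 2.1, 2.7 and 1.6 untreated. The groups were apart, but all 5 probe sets for the gene averaged below the pseudocount over the arrays, and 1 of 5 went the other way. The latter averaged 8.33 at PI 4 h, 4.63 at PI 24 h and 6.17 untreated. The probe set used for COL3A1 averaged 2.43, 19.8 and 2.13, and was the brighter of this pair only at PI 24 h. Its choice by mean level thus rested on the group in which it was high. The limma adjusted p of 0.0487 became 0.376 with the mean over probe sets. Its rise was known when the list was made. TGM2, transglutaminase 2, the other ADGRG1 ligand named above, averaged 612 ± 112 at PI 4 h, 556 ± 32 at PI 24 h and 821 ± 39 untreated. The treated arrays lay below the untreated ones at both times, with differences of -0.43 ± 0.14 and -0.55 ± 0.14 that did not pass the threshold (limma adjusted p = 0.265 and 0.108). TENM3 averaged 125 ± 21 at PI 4 h and 73.3 ± 20.0 untreated (limma adjusted p = 0.173), and TENM2 94.0 ± 9.4 at PI 24 h and 155 ± 16 at PI 4 h (limma adjusted p = 0.116). FLRT3 and COL3A1 lost their calls without any 1 of the PI 24 h or untreated arrays. FLRT3 also lost it without replicate 1 of PI 4 h, and COL3A1 without replicate 1 or 3 of PI 4 h.

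Of 23 G proteins and partners, 1 rose at PI 24 h, where 0.465% of all genes were called. ARRB1, beta-arrestin 1, which binds activated receptors and ends their G protein signalling, measured 179.7, 155.2 and 185.9 at PI 24 h, 90.9, 90.1 and 104.2 at PI 4 h, and 95.1, 107.2 and 99.3 untreated. The PI 24 h arrays stood clear of both other groups. The difference from untreated was 0.70 ± 0.12 (limma adjusted p = 0.0474), and 6 of 7 probe sets lay above 0. The other, the second brightest, lay at -0.08 ± 0.16. With the mean over probe sets the difference was 0.43 (limma adjusted p = 0.139), and the call was lost. The adjusted p of ARRB1 was 0.00738 to 0.185 over the 18 alternatives. ARRB1 also lost its call without any 1 of the PI 24 h or untreated arrays or without replicate 1 of PI 4 h. GNAS, which encodes the Gs alpha subunit that raises cyclic AMP, averaged 3019 ± 524 at PI 4 h, 2625 ± 154 at PI 24 h and 4396 ± 207 untreated, just outside the threshold at PI 24 h (limma adjusted p = 0.0543). Each of its 6 probe sets averaging at least 64 was lower at both times without overlap, by 0.58 to 0.80 on the log2 scale at PI 24 h, while 4 of its 12, all averaging below 64, lay above 0 there. GNAQ, the Gq alpha subunit, averaged 454 ± 73 at PI 4 h, 425 ± 82 at PI 24 h and 269 ± 29 untreated (limma adjusted p = 0.157 and 0.135). GNA13, through which ADGRG1 signals, averaged 1265 ± 112 at PI 4 h, 1533 ± 36 at PI 24 h and 1035 ± 28 untreated. PI 24 h differed from untreated by 0.56 ± 0.11, without overlap but not past the threshold (limma adjusted p = 0.0621), while its other 2 probe sets lay below 0 there, the lower at -0.49. PI 24 h differed from PI 4 h by 0.28 ± 0.11 (limma adjusted p = 0.395). ADCY7, an adenylyl cyclase, averaged 41.9 ± 3.4 at PI 4 h and 62.1 ± 4.1 untreated (limma adjusted p = 0.159).

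Of 13 metabolite receptors, which include the free fatty acid and hydroxycarboxylic acid receptors, none was called at either time or between them by limma, and none had an unadjusted p under 0.05. Their medians were -0.15 at PI 4 h and 0.01 at PI 24 h. In this list 11 of 13 averaged below the pseudocount and none reached 64. GPR132 and GPR35 had the smallest p at PI 4 h (limma adjusted p = 0.441 and 0.646), and GPR4, FFAR4 and HCAR1 in the other comparisons.

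**Figure D4:**
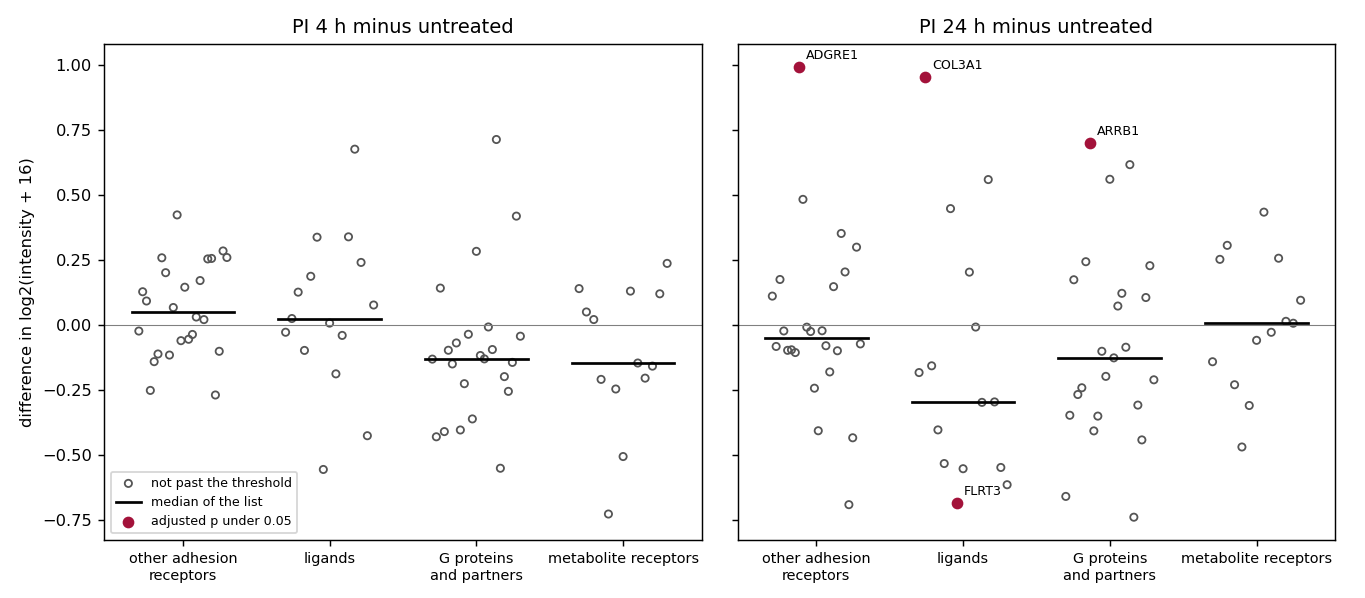
Differences in log2(intensity + 16) of the 75 genes of the 4 lists, at PI 4 h (left) and PI 24 h (right) against untreated, with 1 point per gene, the list's median as a line, and genes with an adjusted p under 0.05 filled and named. ADGRE1, COL3A1 and ARRB1 are named above 0 and FLRT3 below 0 at PI 24 h, and none is filled at PI 4 h.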

How the data were processed

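The deposited values are linear intensities, 1 per probe set and array. Per the submitters' processing notes, R 2.9.2 and RMA were used, with no role named. The values were linear, and on every array their mean after trimming 2% at each end was 100, so these values do not show a change in total messenger RNA. The spiked-in poly-A controls differed between the groups and were not used for scaling here. The labels do not say how they were scaled. No detection calls were used. From the intensities log2(intensity + 16) was computed here. Control probe sets (62) were left out, and of the rest 41091 named 1 gene, 1801 several and 11721 none in the supplied annotation, whose identifiers were updated through RefSeq (41037 matched, 54 kept their symbol). Where several probe sets named a gene, that with the largest mean log2 value stood for it. A model with 1 mean per group over all 9 arrays was fitted with limma 3.58.1 in R 4.3.3 (lmFit, eBayes), two-sided, adjusted over all genes by the Benjamini-Hochberg method at 0.05, and again over all probe sets. The fit was tested on simulated data with independent noise and changes planted only in genes above the 40th percentile of mean level. That test does not cover changes in dimmer genes or array quality that differs between groups. No filter was applied.

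The receptor genes, the 4 gene lists and the marker lists were chosen with earlier results of these data known. Genes named were all members, the list genes past the threshold, the 2 of each list with the smallest p per comparison, and the 5 most and 3 least correlated with ADGRG1 and GPR84 among genes averaging at least 64. Outside this rule, ADGRE2, ADGRL4, TGM2 and the markers were named after their values were seen. Groups and replicate numbers came from the titles. Replicates with the same number did not deviate together (r from -0.04 to 0.06 over 9 pairs), so the model has no block. No arrays were identical, and within groups r was 0.98 to 0.99. Whether replicates came from separate cultures is stated only by the word biological in the design text.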

Additional observations from a re-analysis of the deposited data

Results flagged for a closer look

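GPR84 was flagged because its effect differed between the 2 times. PI 24 h minus PI 4 h was -1.36 on the log2 scale, past the threshold over all genes, a call lost in 8 of 18 alternative settings. All PI 4 h arrays lay above the untreated ones. All PI 24 h arrays lay below them, but the closest pair was 20.3 and 20.5, near the pseudocount. The PI 24 h difference from untreated was not past the threshold (limma adjusted p = 0.299). Both effects were measured against the same untreated arrays, and the gene had been chosen with this difference known.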

How the results depend on the processing

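Counts are given for PI 4 h against untreated, PI 24 h against untreated, and PI 24 h against PI 4 h, in that order. All genes called numbered 49, 92 and 28. They numbered 6, 1 and 9 with a pseudocount of 1, 273, 826 and 251 with 64, 177, 577 and 125 with a filter at the 40th percentile, 352, 959 and 254 with an intensity trend and robust estimation, and 2, 200 and 1 with only the groups compared. Median centring gave 17, 76 and 15, with 22 higher and 54 lower at PI 24 h in place of 43 and 49. The mean over probe sets gave 26, 49 and 28. Receptor genes called (1, 1 and 1) became 0 in all 3 with a pseudocount of 1, 0 at PI 4 h with quantile normalization, median centring or only the groups compared, 0 at PI 24 h with the mean over probe sets, and 0 between the times with only the groups compared. Receptor probe sets called (0, 0 and 1) became 1, 1 and 1 with a pseudocount of 64, the filter, or the trend, and 0 between the times with a pseudocount of 1 or only the groups compared. Of the 75 list genes (0, 4 and 0 called), a pseudocount of 64 called 2, 8 and 3, the filter 1, 6 and 2, the trend 2, 9 and 4, the mean over probe sets 0, 1 and 1, quantile normalization 0, 4 and 1, median centring 0, 2 and 0, and a pseudocount of 1 none. With the replicate block, whose numbers did not pair the arrays (5 of 9 correlated best with their own number), 3, 1 and 3 genes, and 0 receptor genes, receptor probe sets and list genes were called. Without 1 array, all genes called ranged from 3 to 15, 0 to 256 and 6 to 18, receptor genes from 0 to 0, 0 to 1 and 0 to 1, receptor probe sets from 0 to 0, 0 to 1 and 0 to 0, and list genes from 0 to 0, 0 to 6 and 0 to 0. The count of 256 at PI 24 h was without replicate 2 of PI 4 h. No called difference changed sign. COL3A1 fell below the filter and has no value there. Of 1347 recomputed differences, 47 moved by more than the spread between arrays, all others by less. GPR84, ADGRG6 and most list receptors lie near background, where no detection call limits them.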
